A study of Mus musculus with 9 samples.

Results

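The comparison described here set 3 left ventricles labelled Lrat-/- from mice on a vitamin A deficient diet against 3 left ventricles of wild-type mice on a vitamin A sufficient diet. These are 6 of the 9 arrays of the series, and the members are all 21882 genes that could be named on them. The third group, of 3 arrays labelled Lrat-/- on the sufficient diet, is used to show where genes of the comparison lay without the dietary loss, and it shares in the estimate of the spread. All mice were male and were killed after 50 days on the diet, and the sufficient diet was the deficient diet with 250000 U/kg of retinol palmitate added. The labels do not give age, strain or the kind of Lrat allele. Wild-type mice were sampled on the sufficient diet alone, so genotype and diet are joined in this comparison and cannot be told apart within it. Each array is a separate sample by its labels, which do not say whether RNA of several animals was pooled, so the p-values measure the spread between these samples.

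Vitamin A reaches tissues as retinol, and lecithin retinol acyltransferase, the product of Lrat, turns retinol into retinyl esters, the form in which the vitamin is stored, mainly in liver. Without esters an animal draws on what it eats, so mice that lack the enzyme are used as a model that becomes deficient quickly once dietary vitamin A is withdrawn. In cells, dehydrogenases oxidise retinol to retinaldehyde and on to retinoic acid, which binds RAR and RXR receptors, and CYP26 enzymes break the acid down. Receptor pairs sit on direct repeats of a short hexamer in DNA, and Rarb and Cyp26a1, which retinoic acid induces, are textbook examples. In the heart retinoic acid is best known for its part in the development of the chambers and of the epicardium.

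The signals are log2 values after RMA, and array medians lay between 6.38 and 6.43. Pearson correlations over genes were 0.991 to 0.996 within the 2 groups and 0.989 to 0.995 between them, and the median standard error of a difference was 0.0978. Among 5222 negative control probe sets the median signal was 4.55 and the 95th percentile 7.58, against a median of 6.86 over the genes, and a gene is called dim below where its mean lay under 7.58. Wild-type arrays 1 and 2 stood apart on principal component 1 (27.9% of variance), at -27.1 and -17, against 6.39 to 15 on the arrays labelled deficient Lrat-/-. Wild-type array 3 lay at 3.76 on that component, closer to those arrays, and at -22.1 on component 2 (19.3%). For this reason some of the results that move without it are also given without it. The 10 markers of ventricular heart muscle averaged 12.15 to 12.26 on the arrays labelled deficient Lrat-/- and 12.24 to 12.34 on the wild-type arrays, as the tissue label would have it. In whole tissue, fewer cells of a type and less RNA per cell cannot be told apart.

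Lrat itself went against the genotype labels. Its signal was 6.84, 6.78 and 6.96 on the arrays labelled deficient Lrat-/-, against 5.81, 5.78 and 5.73 on the wild-type arrays. All 3 arrays labelled knockout thus lay above all 3 wild-type arrays, by 1.09 ± 0.07 (SE) on the log2 scale (limma, adjusted p = 2.56e-04). All these signals were dim, and on the sufficient diet the arrays labelled Lrat-/- were higher still, at 7.29, 7.34 and 7.38. Whether the probes fall inside or outside the deleted stretch is not stated in the labels or files, so the signal neither bears out the labels nor shows them wrong. Genotypes below are those of the labels, and each direction is drawn from them.

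To show the DNA through which retinoic acid acts, the promoters of Rarb, of Cyp26a1 and of Lrat are printed from RefSeq (GRCm38.p6), from 250 bases before to 50 bases after the start, 5′ to 3′ on the gene's strand. Capitals mark hexamers that RAR and RXR bind, searched on both strands as AGGTCA, or with the spelling AGTTCA, or with the spelling GGGTCA, or with the spelling GGTTCA. A direct repeat was counted where a pair of hexamers on the same strand stood 1, 2 or 5 bases apart. The Rarb window (chr14:16575427-16575726, minus strand) holds a repeat with a spacing of 5 and 1 further hexamer. The Cyp26a1 window (chr19:37697558-37697857, plus strand) holds a repeat with the same spacing read on the other strand, and the Lrat window (chr3:82903925-82904224, minus strand) holds no hexamer.
Rarb: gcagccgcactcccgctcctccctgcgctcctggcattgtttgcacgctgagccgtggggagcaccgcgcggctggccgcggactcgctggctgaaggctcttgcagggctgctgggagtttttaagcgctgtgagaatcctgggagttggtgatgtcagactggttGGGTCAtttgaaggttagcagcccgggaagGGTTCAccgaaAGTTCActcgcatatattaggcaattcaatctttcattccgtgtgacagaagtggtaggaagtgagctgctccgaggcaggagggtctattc
Cyp26a1: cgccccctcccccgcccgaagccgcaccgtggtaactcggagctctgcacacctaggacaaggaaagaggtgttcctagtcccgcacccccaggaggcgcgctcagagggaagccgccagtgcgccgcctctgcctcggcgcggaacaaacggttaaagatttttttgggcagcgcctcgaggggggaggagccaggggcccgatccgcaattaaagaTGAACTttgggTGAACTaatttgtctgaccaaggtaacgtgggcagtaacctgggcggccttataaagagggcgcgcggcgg
Lrat: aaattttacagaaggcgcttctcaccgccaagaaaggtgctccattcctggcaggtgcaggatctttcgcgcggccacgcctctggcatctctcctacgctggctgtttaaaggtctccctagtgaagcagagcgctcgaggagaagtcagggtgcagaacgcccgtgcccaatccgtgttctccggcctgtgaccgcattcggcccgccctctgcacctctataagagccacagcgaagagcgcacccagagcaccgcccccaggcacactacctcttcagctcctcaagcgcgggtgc
Such a repeat was found in 193 of 32851 RefSeq promoters (0.588%). Among promoters of the genes tested, from which the next 2 sets come, it was found in 62 of 19415 (0.319%). It was found in 2 of 22 promoters of the genes listed as induced by retinoic acid, those shown, and in 0 of 30 promoters of the 23 genes past the threshold that matched the table. At a share of 0.319%, 30 promoters are too few to show a lack of repeats. A match of letters is a description and not a binding site.

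Of 21882 genes 29 differed between the groups (0.133%, limma with Benjamini-Hochberg adjustment over all genes, threshold 0.05). Of these 13 were higher (0.0594%) and 16 lower (0.0731%) in the hearts labelled deficient Lrat-/-, and 16 differed by more than 2-fold. At an unadjusted p under 0.05 there were 1972 genes (9.01%), 775 higher and 1197 lower. The number of calls rested on single arrays: without wild-type array 3 it was 279 (118 higher and 161 lower, all 29 among them), without each of the other arrays compared it lay between 11 and 21. Of the 29 genes, 2 are predicted or clone genes (Gm14267 and G530011O06Rik), and 26 are described below. All 29 had groups that do not overlap, as did 2512 of all genes (11.5%). Of the 29 genes, 10 were dim in all 3 groups, and 20 in at least 1 of the groups compared, where the size of a difference is uncertain. Of the 26 genes described, 8 passed without each of the 9 arrays in turn.

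**Figure D1:**
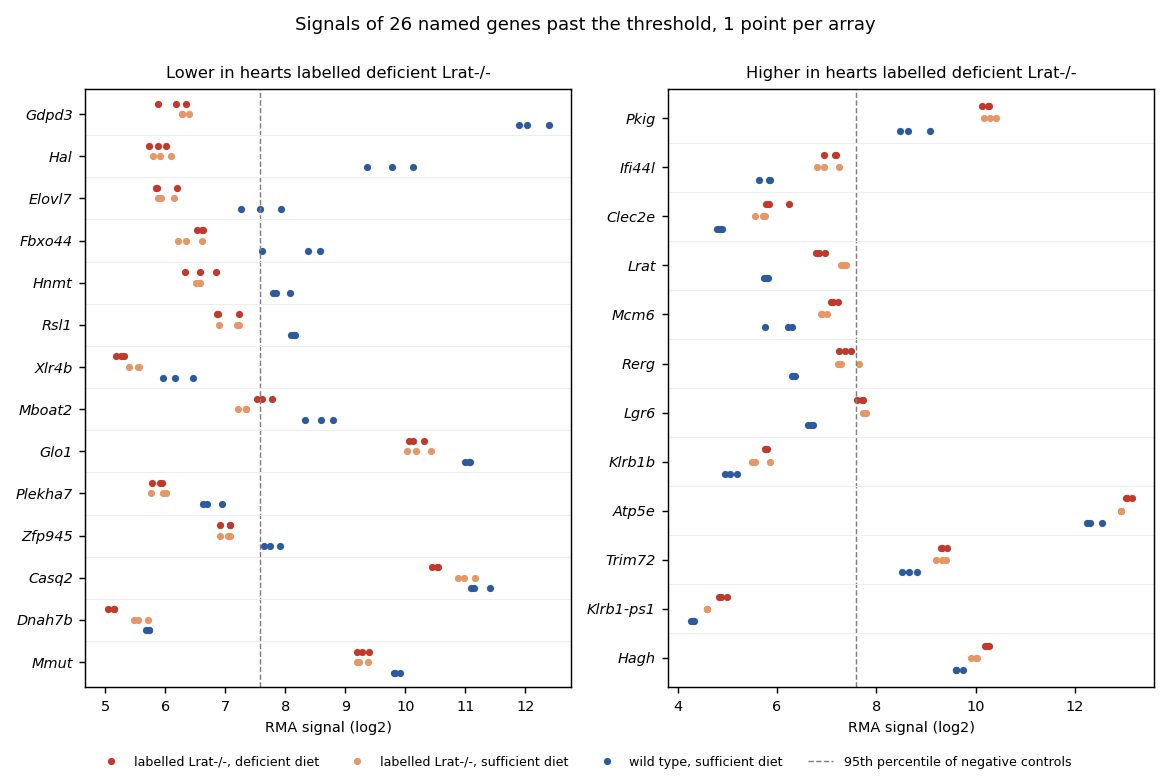
RMA signal (log2) of 26 named genes past the threshold on each of the 9 arrays, with the 14 lower genes in the left panel and the 12 higher genes in the right panel; the dashed line is the 95th percentile of the negative controls (7.58). The arrays labelled deficient Lrat-/- lie to one side of all wild-type arrays in every row, and those labelled sufficient Lrat-/- lie among the deficient ones or beyond them in most rows, and between them and wild type in others, such as Casq2, Dnah7b, Clec2e, Hagh and Klrb1-ps1.

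**Figure D2:**
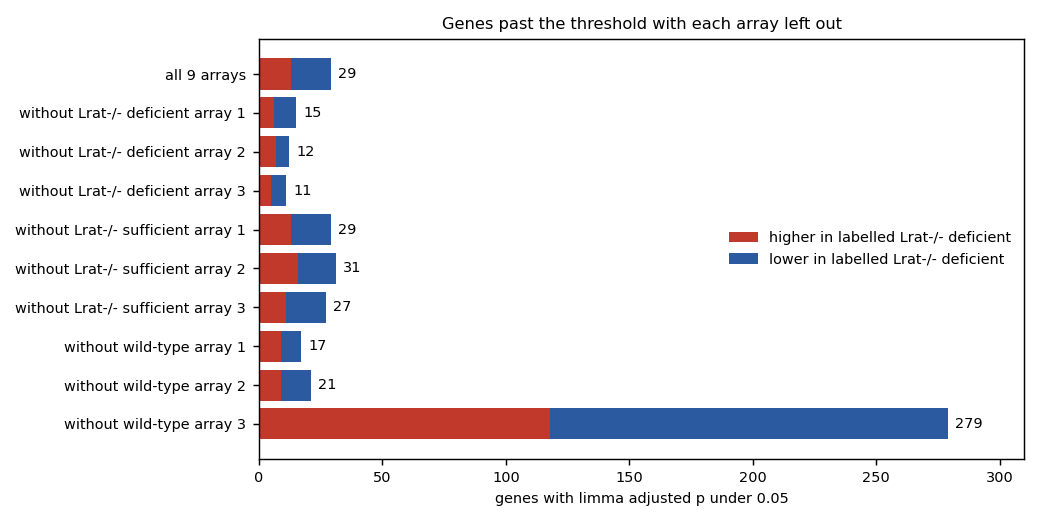
Number of genes with a limma adjusted p under 0.05 with all 9 arrays (29) and with each array left out, split by direction. Leaving out wild-type array 3 gives 279 genes, and leaving out an array labelled deficient Lrat-/- gives 11 to 15.

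The 2 largest falls described here were in Gdpd3, an enzyme of lipid metabolism, and Hal, an enzyme of amino acid breakdown. The lists that hold them were chosen with earlier results of these data known, so their counts are a description. Gdpd3, a glycerophosphodiesterase that acts on lysophospholipids, had signals of 5.87, 6.18 and 6.34 in hearts labelled deficient Lrat-/-, against 11.89, 12.03 and 12.40 in wild type. It was among the bright genes of the wild-type ventricle and dim in every heart labelled knockout, a difference of -5.98 ± 0.15 (adjusted p = 1.36e-07). Elovl7, an elongase of long-chain fatty acids, had 5.86, 5.85 and 6.2, against 7.58, 7.94 and 7.27 in wild type (-1.62 ± 0.17, adjusted p = 0.00644). Mboat2, which acylates lysophospholipids, had 7.61, 7.53 and 7.78, against 8.60, 8.32 and 8.80 in wild type (-0.93 ± 0.12, adjusted p = 0.0205), a call that held without 4 of the 9 arrays (adjusted p up to 0.138). The groups lay apart in all 3 genes. Of the 44 measured phospholipid and fatty acyl remodelling enzymes these 3 fell, 0 rose and 41 did not pass, where 0.0731% of all genes fell. The median over the list was -0.041 (-0.0802 without array 2 labelled deficient Lrat-/-), beside -0.0042 over all genes. Of the members that did not pass, Napepld, which makes N-acylethanolamines, was at -0.48 ± 0.11 (adjusted p = 0.221). Without wild-type array 3, where 1.28% of all genes passed, the desaturase Fads2 (-0.64, adjusted p = 0.0261), Elovl5 (-0.48, adjusted p = 0.0487) and Pla2g12a (0.46, adjusted p = 0.0374) passed. They are named after their values were seen. None of these 3 passed with another array left out, and adjusted p then reached 0.744 for Fads2, 0.671 for Elovl5 and 0.876 for Pla2g12a.

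Among 36 measured genes listed for amino acid breakdown 3 fell and 0 rose, where 0.0731% of all genes fell, with a list median of -0.12. Hal, histidine ammonia-lyase, the enzyme that starts the breakdown of histidine, had signals of 5.73, 6.01 and 5.88 in hearts labelled deficient Lrat-/-, against 9.77, 10.13 and 9.36 in wild type (-3.88 ± 0.17, adjusted p = 1.90e-05). Hnmt, which methylates histamine, the amine made from histidine, had 6.33, 6.57 and 6.85, against 7.84, 7.79 and 8.07 in wild type (-1.31 ± 0.13, adjusted p = 0.00499). Mmut, the mitochondrial methylmalonyl-CoA mutase that feeds propionate from amino acids into the citric acid cycle, had 9.39, 9.27 and 9.2, against 9.81, 9.83 and 9.91 in wild type (-0.57 ± 0.08, adjusted p = 0.0301). Hal and Hnmt were dim in the hearts labelled knockout, while Mmut was bright in both groups. The call of Mmut held without 2 of the 9 arrays and was lost without each of the other 7. Over the 9 its adjusted p ranged from 0.0325 to 0.192. Fah, the last enzyme of tyrosine breakdown, was at -0.66 ± 0.15 and did not pass (adjusted p = 0.234).

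The glyoxalase pair, which turns methylglyoxal, a by-product of glycolysis, into lactate, moved in opposite directions. Glo1, the first enzyme, had signals of 10.31, 10.13 and 10.06 in hearts labelled deficient Lrat-/-, against 11.08, 10.99 and 11.06 in wild type (-0.88 ± 0.11, adjusted p = 0.0158). Hagh, the second enzyme, had 10.26, 10.20 and 10.24, against 9.60, 9.60 and 9.75 in wild type (0.58 ± 0.07, adjusted p = 0.0158). They were the only 2 of 38 measured glutathione, thioredoxin and antioxidant genes to pass, and the list median was 0.0054. Both calls were lost without each of several arrays, with adjusted p up to 0.122 for Glo1 and 0.121 for Hagh.

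Casq2, calsequestrin of the heart, which binds calcium inside the sarcoplasmic reticulum, was the only gene of 29 measured for calcium handling to pass. Its signals were 10.54, 10.53 and 10.45 in hearts labelled deficient Lrat-/-, against 11.41, 11.10 and 11.14 in wild type. The 3 arrays labelled deficient Lrat-/- lay close together and below all wild-type arrays, by 0.71 on the log2 scale (-0.71 ± 0.10, adjusted p = 0.0398). This call was near the threshold: it held without 2 of the 9 arrays, and adjusted p ranged from 0.0278 to 0.257 over the 9. The list median was -0.10, and 22 of the 29 genes were lower at any size. Casq1, the skeletal muscle form, was at 0.76 ± 0.19 and dim (adjusted p = 0.261), and Srl, sarcalumenin of the sarcoplasmic reticulum, was at -0.26 ± 0.09 (adjusted p = 0.447).

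Other falls were in genes of varied roles. Fbxo44, a substrate receptor of a ubiquitin ligase, had 6.62, 6.61 and 6.53 in hearts labelled deficient Lrat-/-, against 8.38, 7.62 and 8.58 in wild type (-1.61 ± 0.21, adjusted p = 0.0238). The call held without 3 of the 9 arrays (adjusted p up to 0.192). The groups did not overlap, and its wild-type arrays were the more widely spread. The zinc finger repressor genes Rsl1 (-1.14 ± 0.12, adjusted p = 0.00836) and Zfp945 (-0.74 ± 0.09, adjusted p = 0.0158) fell. Plekha7, of the adherens junction, was dim in both groups and fell by 0.88 on the log2 scale (adjusted p = 0.0149). Xlr4b of the X chromosome (-0.95 ± 0.12, adjusted p = 0.0158) and the dynein heavy chain Dnah7b (-0.60 ± 0.08, adjusted p = 0.017) were dim in both groups as well, and the mean of the probe sets of Dnah7b did not pass. Of these calls Zfp945 and Dnah7b held without 4 of the 9 arrays, Plekha7 and Xlr4b without 5 and Rsl1 without 7 (adjusted p up to 0.125).

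Pkig, an inhibitor of the catalytic subunit of protein kinase A, the kinase through which adrenergic signals act on heart muscle, showed the largest log2 rise among the genes past the threshold described here. Its signals were 10.25, 10.27 and 10.13 in hearts labelled deficient Lrat-/-, against 8.48, 8.64 and 9.09 in wild type (1.48 ± 0.14, adjusted p = 0.00499). All 3 arrays labelled deficient Lrat-/- lay more than 1 log2 unit above the highest wild-type array. It was the only one of 16 measured protein kinase A subunits, anchors and inhibitors to pass (list median -0.023, and -0.0945 without wild-type array 3). The regulatory subunit Prkar1a was at -0.46 ± 0.16 (adjusted p = 0.454) and the anchor Akap7 at 0.25 ± 0.08 (adjusted p = 0.422).

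Rises in signalling, replication and muscle genes followed. Lgr6, a receptor for R-spondins that strengthens Wnt signalling, had 7.71, 7.73 and 7.61 in hearts labelled deficient Lrat-/-, against 6.72, 6.68 and 6.62 in wild type (1.01 ± 0.06, adjusted p = 2.56e-04). It alone passed among 42 genes of TGF-beta, BMP and Wnt signalling, of which 31 were lower at any size (median -0.09, and -0.0127 without wild-type array 1), with the BMP target Id2 at -0.71 ± 0.14 (adjusted p = 0.148). Mcm6, a subunit of the replicative helicase, had 7.13, 7.08 and 7.22, against 6.29, 6.21 and 5.75 in wild type (1.06 ± 0.13, adjusted p = 0.0158). Rerg, a small GTPase of the Ras family, was at 7.25, 7.49 and 7.37, against 6.31, 6.30 and 6.36 in wild type (1.05 ± 0.11, adjusted p = 0.00868). Mcm6 and Rerg were dim in both groups, and each call held without 6 of the 9 arrays (adjusted p up to 0.125 for Mcm6 and 0.0806 for Rerg). Trim72, which takes part in the repair of muscle cell membranes, had 9.42, 9.31 and 9.31, against 8.65, 8.51 and 8.81 in wild type (0.69 ± 0.09, adjusted p = 0.0232), a call that held without 3 of the 9 arrays (adjusted p up to 0.136). Atp5e, a small subunit of the mitochondrial ATP synthase, had 13.04, 13.02 and 13.15, against 12.25, 12.30 and 12.55 in wild type (0.71 ± 0.09, adjusted p = 0.0158). Its call held without 4 of the 9 arrays (adjusted p up to 0.122), and it was the brightest of the genes that passed. Among 46 other genes of the respiratory chain and ATP synthase 0 passed, 23 were higher and 23 lower at any size.

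A lectin-like gene, a related receptor gene and a pseudogene rose at dim signals. Clec2e, a C-type lectin, had 5.83, 5.78 and 6.23 in hearts labelled deficient Lrat-/-, against 4.89, 4.86 and 4.79 in wild type (1.10 ± 0.12, adjusted p = 0.00868). Klrb1b, a receptor of natural killer cells, was at 0.72 ± 0.10 (adjusted p = 0.0413), and the pseudogene Klrb1-ps1 at 0.60 ± 0.07 (adjusted p = 0.00874). The call of Klrb1b held without 3 of the 9 arrays (adjusted p up to 0.257) and that of Klrb1-ps1 without 7 (up to 0.0538). Members of this lectin-like family resemble each other in sequence, and how far their probes are shared is not known here. All 16 measured lymphocyte markers were dim in all 3 groups, 0 passed, and 13 were lower at any size. Ifi44l, which interferons induce, had 7.18, 6.94 and 7.17, against 5.87, 5.64 and 5.83 in wild type (1.32 ± 0.13, adjusted p = 0.00499). It rose alone among the interferon genes described further on.

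The third group shows where the named genes lay in hearts labelled Lrat-/- on the sufficient diet. The differences of both groups from wild type share the wild-type arrays and are only set side by side. Of the 29 genes 20 also passed in the sufficient group against wild type, a comparison in which 29 genes passed in all (0.133%). Gdpd3 was at -5.98 ± 0.15 on the deficient and -5.79 ± 0.15 on the sufficient diet, Hal at -3.88 ± 0.17 and -3.82 ± 0.17, Pkig at 1.48 ± 0.14 and 1.55 ± 0.14. In 10 of the 29 genes the 3 arrays labelled deficient Lrat-/- lay on the called side of all 3 sufficient ones too. Among them are Atp5e, Casq2, Clec2e, Dnah7b, G530011O06Rik, Hagh, Klrb1-ps1, Mcm6 and Xlr4b. The share of all genes with such a gap between the diets was not counted. The 29 genes were also chosen by values on these same deficient arrays, so the count is a description and shows no effect of diet. For Casq2 the sufficient arrays had 10.97, 10.88 and 11.16, so that the group lay 0.50 ± 0.10 above the deficient arrays and 0.21 ± 0.10 below wild type. For Dnah7b they had 5.48, 5.70 and 5.54, with -0.13 ± 0.08 against wild type and -0.47 ± 0.08 for deficient against sufficient. Lrat and Mboat2 went the other way, with deficient minus sufficient at -0.48 ± 0.07 for Lrat and 0.34 ± 0.12 for Mboat2. Between the diets within Lrat-/- 0 genes passed in limma, with 936 (4.28%) at an unadjusted p under 0.05, so none of these diet differences passed over all genes (adjusted p = 0.633 for Casq2, 0.465 for Dnah7b and Lrat, and 0.969 for Mboat2).

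**Figure D3:**
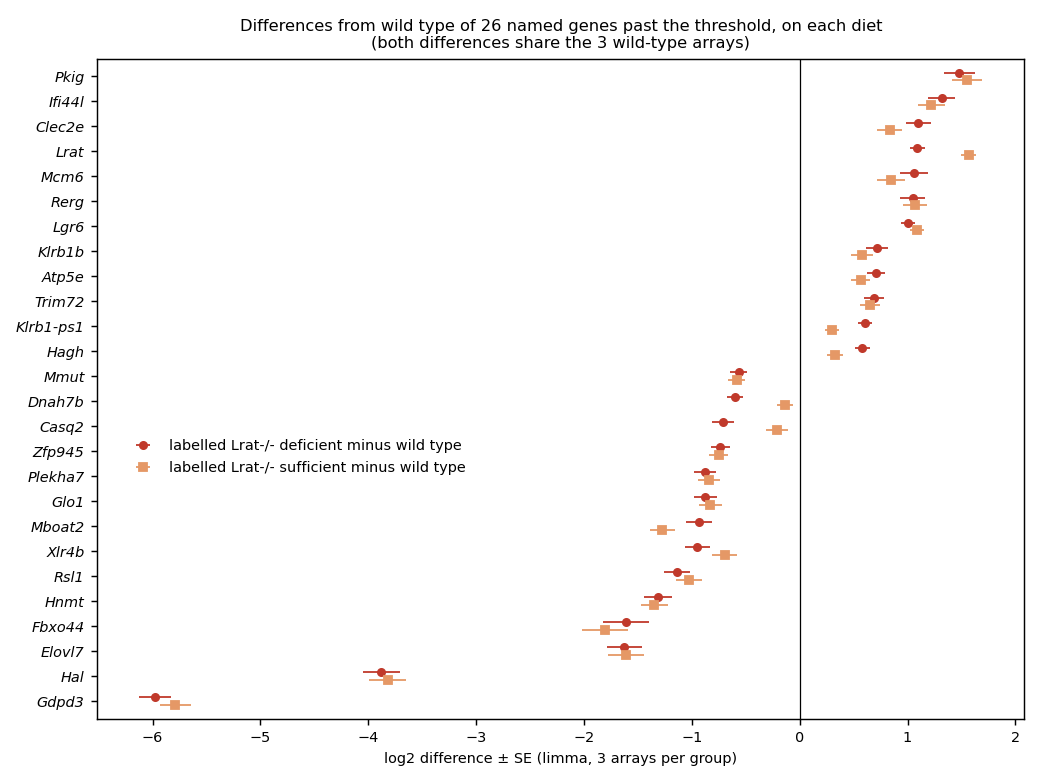
Log2 differences from wild type (± SE, limma) of 26 named genes, for arrays labelled deficient Lrat-/- (circles) and sufficient Lrat-/- (squares); both share the 3 wild-type arrays. The pairs lie close together in many genes, and further apart in others, such as Casq2 (-0.71 and -0.21), Dnah7b (-0.60 and -0.13), Lrat (1.09 and 1.57) and Mboat2 (-0.93 and -1.27).

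The genes next to the threshold differed little from those past it. Just inside were Fbxo44, Mmut, Casq2, Klrb1b and the clone gene G530011O06Rik. Just outside were Zfp985 (-0.77 ± 0.12), A530095I07Rik (-0.74 ± 0.11), Btbd9 (-0.63 ± 0.10) and the radial spoke gene Rsph3a (1.30 ± 0.20), each with an adjusted p of 0.0581, and Zfp943 (0.77 ± 0.12, adjusted p = 0.0641). By the deposited annotation, which gives a chromosome for 19360 of the genes tested, 5 of the 29 genes lie on chromosome 17, which holds 938 of the genes tested (0.533% of them past the threshold, against 0.133% of all genes). Among them are Glo1, Hagh, Mmut and Zfp945, and Btbd9, Rsph3a and Zfp943 just outside the threshold lie there too. Chromosome 6 held 3 (Clec2e, Klrb1b and Rerg, 0.281% of its genes tested) and chromosome 7 held 3 (Gdpd3, Plekha7 and Trim72, 0.176%). Chromosome 3, where the Lrat promoter printed above lies, held 2 (Casq2 and Ifi44l, 0.22%), as many as chromosomes 1, 2 and X. For 6 of the 29, Lrat among them, no chromosome is given. These counts are a description made after the genes were known.

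Genes of the retinoid pathway other than Lrat did not pass. Among the 42 measured genes that take up, store, oxidise or break down retinoids, Lrat rose, 0 fell and 41 did not pass, with a list median of -0.018 beside -0.0042 over all genes. Lpl, the lipase that frees fatty acids and retinyl esters from circulating lipoproteins, had 12.27, 12.14 and 12.05 in hearts labelled deficient Lrat-/-, against 12.85, 12.60 and 12.44 in wild type (-0.47 ± 0.10, adjusted p = 0.22). Dhrs3, which turns retinaldehyde back to retinol and is induced by retinoic acid, had 9.56, 9.38 and 9.55, against 9.99, 9.77 and 10.01 in wild type (-0.43 ± 0.11, adjusted p = 0.286). The groups did not overlap in either gene, and Lpl passed without wild-type array 3 (-0.57, adjusted p = 0.0378). With another array left out Lpl did not pass, and its adjusted p reached 0.671. Rbp7, a cellular retinol-binding protein of endothelium and fat, had 11.41, 11.64 and 11.70, against 10.58, 11.21 and 9.64 in wild type. Its wild-type arrays spread over more than 1 log2 unit, and the difference of 1.11 ± 0.32 did not pass (adjusted p = 0.364). Aldh1a2, which makes retinoic acid, was at -0.42 ± 0.19 (adjusted p = 0.561). The retinol transporter Stra6 was dim, at -0.12 ± 0.10 (adjusted p = 0.752).

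Of the 25 genes induced by retinoic acid, Lrat again alone passed, and the median was -0.016 (0.00592 when array 1 of the wild type was left out, and -0.0484 when its array 3 was). Rarb, with the repeat printed above, had signals of 8.45, 8.51 and 8.36 in hearts labelled deficient Lrat-/-, against 8.5, 8.44 and 8.68 in wild type. The groups overlapped, with a difference of -0.10 ± 0.08 (adjusted p = 0.746). Cyp26a1, the other gene with a printed repeat, was dim in both groups, at -0.02 ± 0.07 (adjusted p = 0.965), and its relative Cyp26b1 was at -0.12 ± 0.08 (adjusted p = 0.701). Tgm2, a transglutaminase, was at -0.32 ± 0.13 (adjusted p = 0.534) and Btg2, an antiproliferative gene, at -0.46 ± 0.19 (adjusted p = 0.542). Of 13 retinoid receptors and cofactors 0 passed and 11 were lower at any size (median -0.07). Rarg was at -0.22 ± 0.08 (adjusted p = 0.466) and the coactivator Ncoa3 at -0.22 ± 0.08 (adjusted p = 0.464). Without wild-type array 1 the receptor list's median was 0.0044.

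**Figure D4:**
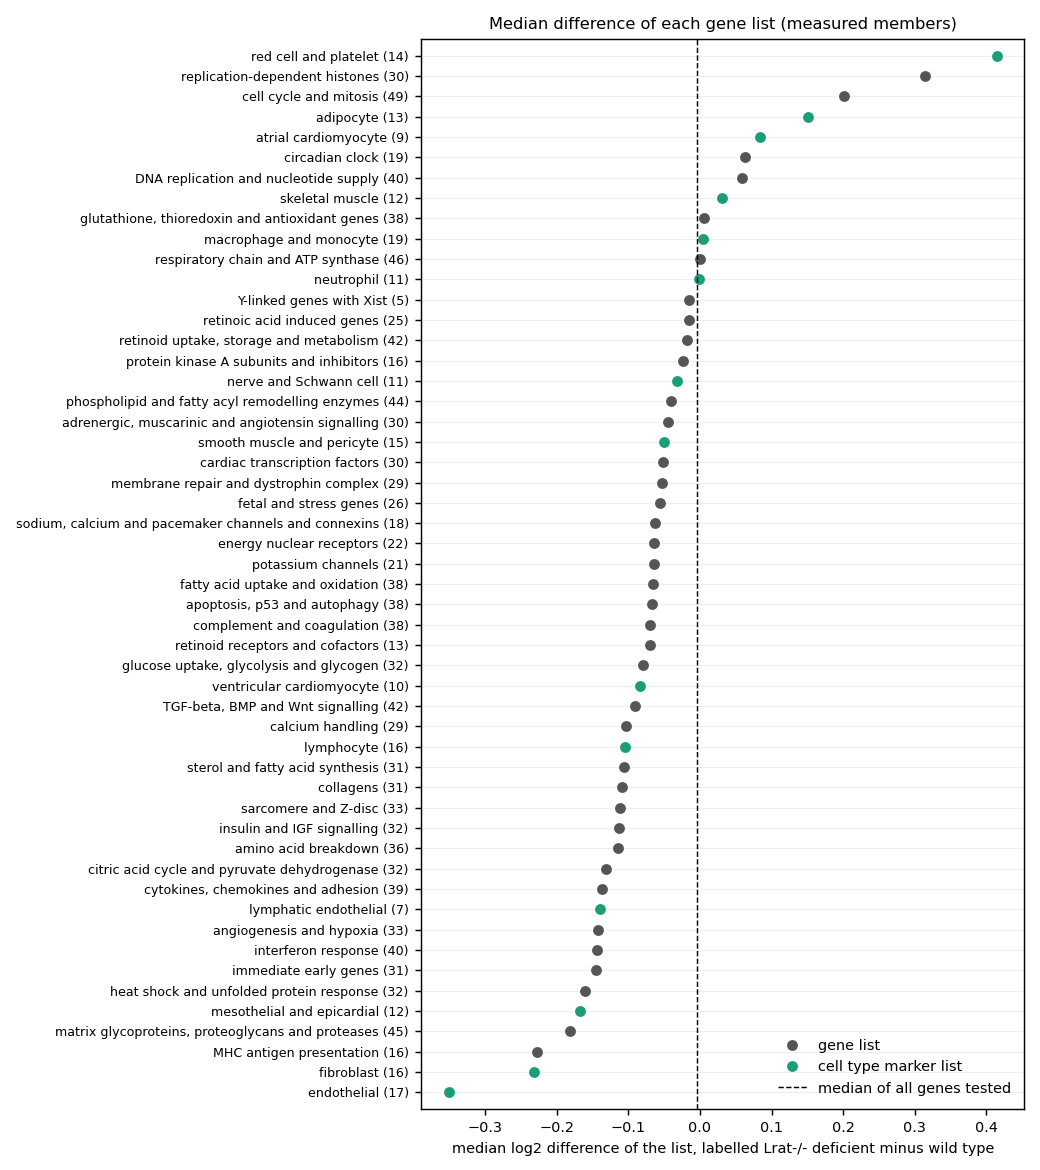
Median log2 difference (labelled deficient Lrat-/- minus wild type) of the measured members of each gene list and each cell type marker list, with the number of members in brackets; the dashed line is the median over all genes (-0.0042). Red cell and platelet markers (0.42), histones (0.32) and cell cycle genes (0.20) lie furthest to the right, and endothelial (-0.35) and fibroblast markers (-0.23) furthest to the left.

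Most cell cycle and histone genes were higher. Of 49 measured genes of the cell cycle and mitosis 45 were higher at any size, beside 48.6% of all genes, and 16 were higher at an unadjusted p under 0.05, as were 3.54% of all genes. None passed over all genes in limma, and 1 was lower at an unadjusted p under 0.05. The list median was 0.20, and 20 of the 49 had all 3 arrays labelled deficient Lrat-/- above all 3 wild-type arrays (4.91% of all genes). Nusap1, a spindle protein, had 7.09, 7.66 and 7.02 in hearts labelled deficient Lrat-/-, against 6.38, 6.57 and 6.24 in wild type (0.86 ± 0.19, adjusted p = 0.218). Tpx2, which builds the spindle, was at 0.50 ± 0.11 (adjusted p = 0.181), Prc1 of the spindle midzone at 0.59 ± 0.15 (adjusted p = 0.293) and Birc5, survivin, at 0.33 ± 0.09 (adjusted p = 0.325). These 4 genes, and 43 of the 49, were dim in all 3 groups, where the size of a difference is uncertain. Without wild-type array 3 the centromere protein Cenpf, named after its value was seen, passed in the other direction (-0.53, adjusted p = 0.0499). With another array left out Cenpf did not pass, and its adjusted p reached 0.809.

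Of 30 measured replication-dependent histone genes, which supply chromatin during S phase, 25 were higher at any size (48.6% of all genes). At an unadjusted p under 0.05, 15 were higher (3.54% of all genes) and 2 lower (5.47%), and 0 passed over all genes. Only 9 were dim in all 3 groups, and the list median was 0.32. H2bc14 had 10.27, 10.32 and 10.32 in hearts labelled deficient Lrat-/-, against 9.56, 9.91 and 9.66 in wild type (0.59 ± 0.11, adjusted p = 0.148). H2ac20 had 11.97, 12.25 and 12.25, against 11.29, 11.71 and 11.53 in wild type (0.65 ± 0.13, adjusted p = 0.151). H2ac13 had 11.97, 12.09 and 12.06, against 11.38, 11.69 and 11.36 in wild type (0.57 ± 0.11, adjusted p = 0.162). The groups lay apart in all 3 genes. Without wild-type array 3, where 0.539% of all genes rose, H2bc18, named after its value was seen, passed as higher (0.88, adjusted p = 0.0297). Its fits without the other arrays are not given here. Histone genes of one class are near copies, so how their signals divide between copies is uncertain. The list mean was 9.34 to 9.39 on the arrays labelled deficient Lrat-/-, 8.81 to 9.0 on those labelled sufficient Lrat-/- and 8.84 to 9.17 on the wild-type arrays. In the DNA replication list Mcm6 alone of 40 genes passed and 32 were higher at any size (median 0.059). Within it Rrm2, a subunit of ribonucleotide reductase, was at 0.27 ± 0.08 (adjusted p = 0.388), and 33 of the 40 were dim.

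Red cell and platelet markers had the highest median of all lists, 0.42, with 12 of 14 higher at any size (48.6% of all genes). Of the 14, 6 were higher at an unadjusted p under 0.05 (3.54% of all genes), and 0 passed the threshold. In all 3 groups 6 of the 14 were dim, and the listed globin genes Hba-a1, Hbb-b1 and Hbb-bs were not measured. Leaving out single arrays put the median between 0.278 and 0.473, and at a mean log2 of at least 6 it was 0.794. Ahsp, the chaperone of alpha globin, had 7.69, 9.51 and 8.43 in hearts labelled deficient Lrat-/-, against 6.80, 5.71 and 6.51 in wild type (2.20 ± 0.43, adjusted p = 0.151). Array 2 of the hearts labelled deficient Lrat-/- was the highest, and the groups did not overlap. The list mean was 8.73, 9.25 and 8.92 on the arrays labelled deficient Lrat-/-, 8.71 to 8.73 on those labelled sufficient Lrat-/- and 8.46, 8.17 and 8.30 on the wild-type arrays. Cell cycle and histone means were higher on the arrays labelled deficient Lrat-/- too. On the sufficient diet the median difference from wild type was 0.21 for the red cell and platelet markers, -0.08 for the cell cycle and -0.13 for the histones. Whether these lists are linked was not tested. Macrophage markers had a median of 0.0043, with 10 of 19 higher.

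**Figure D5:**
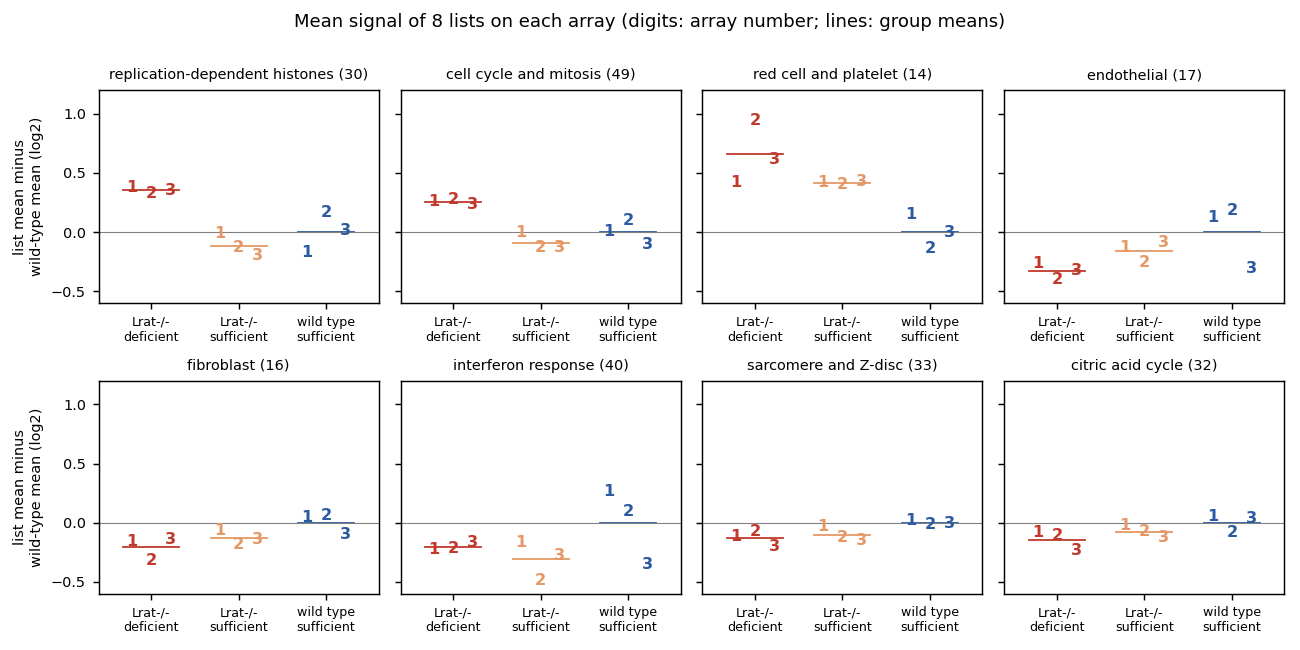
Mean signal of 8 lists on each array, minus the mean of the 3 wild-type arrays (log2); digits are array numbers, lines are group means and the number of genes is in brackets. Histone and cell cycle means are higher on all 3 deficient arrays than on the other 6, and wild-type array 3 lies lowest of the wild-type arrays in the endothelial, fibroblast and interferon lists.

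Endothelial and fibroblast markers were mostly lower. All 17 measured endothelial markers were lower at any size, 7 of them at an unadjusted p under 0.05 (5.47% of all genes), and 0 passed. The median was -0.35. Aqp1, a water channel of endothelium, had 10.32, 10.33 and 10.12 in hearts labelled deficient Lrat-/-, against 11.31, 11.30 and 10.58 in wild type (-0.81 ± 0.18, adjusted p = 0.221). Esam, an adhesion molecule of endothelial junctions, was at -0.47 ± 0.14 (adjusted p = 0.376). Lyve1 of lymphatic vessels and macrophages had 10.19, 10.32 and 10.16, against 10.75, 10.92 and 10.70 in wild type (-0.57 ± 0.11, adjusted p = 0.148). Wild-type array 3 was the lowest wild-type array in Aqp1 and its endothelial mean (9.64) lay within the range of the arrays labelled deficient Lrat-/- (9.55 to 9.68). The endothelial median was -0.233 without wild-type array 2 and -0.258 without array 2 labelled deficient Lrat-/-. Without wild-type array 3 it was -0.49, and 4 of the 17 fell: Aqp1 (-1.05, adjusted p = 0.00624), Tie1 (-0.63, adjusted p = 0.0223), Esam (-0.63, adjusted p = 0.0383) and Eng (-0.87, adjusted p = 0.0458), where 1.28% of all genes passed. None of these 4 passed with another array left out. Their adjusted p then reached 0.671 for Aqp1, 0.824 for Tie1, 0.806 for Esam and 0.883 for Eng.

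Fibroblast markers were lower in 14 of 16 cases and 0 passed. Their median was -0.23 (-0.109 without array 2 labelled deficient Lrat-/- and -0.292 without wild-type array 3). Matrix glycoproteins, proteoglycans and proteases were lower in 41 of 45, 11 of them at an unadjusted p under 0.05 (5.47% of all genes), and 0 passed. The list median was -0.18, and -0.284 without wild-type array 3. Sparcl1, a matricellular protein, had 11.04, 10.75 and 11 in hearts labelled deficient Lrat-/-, against 12.18, 11.91 and 11.40 in wild type (-0.90 ± 0.17, adjusted p = 0.148). Its relative Sparc, which binds collagen, had 11.64, 11.38 and 11.59, against 12.18, 12.12 and 11.78 in wild type (-0.49 ± 0.11, adjusted p = 0.234). Both fell without wild-type array 3 (-1.11 and adjusted p = 0.00731 for Sparcl1, -0.61 and adjusted p = 0.0278 for Sparc). Neither passed with another array left out, and adjusted p then reached 0.46 for Sparcl1 and 0.618 for Sparc. Lum, lumican, was at -0.45 ± 0.11 (adjusted p = 0.274), and Plod1, which modifies collagen, at -0.48 ± 0.10 (adjusted p = 0.171). Of 31 collagen genes and their enzymes 25 were lower at any size (median -0.11, and -0.0467 without wild-type array 1). Of 15 smooth muscle and pericyte markers 10 were lower and 5 higher (median -0.05, and -0.118 without wild-type array 1 and -0.013 without array 3 labelled deficient Lrat-/-), with Rgs5 of pericytes at -0.40 ± 0.08 (adjusted p = 0.151). Endothelial markers were lower on the same arrays as the matrix genes, and their part in the matrix values was not tested.

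Among interferon genes Ifi44l rose, while the guanylate-binding protein genes named below were lower and did not pass with all 9 arrays. Of 40 measured, 1 rose, 0 fell and 30 were lower at any size (median -0.14). At an unadjusted p under 0.05, 9 were lower, as were 5.47% of all genes. Gbp6 had 8.43, 7.96 and 8.25 in hearts labelled deficient Lrat-/-, against 9.76, 9.71 and 8.51 in wild type (-1.11 ± 0.31, adjusted p = 0.336). Gbp7 had 8.0, 7.84 and 7.91, against 9.19, 8.84 and 8.0 in wild type (-0.76 ± 0.24, adjusted p = 0.422). In both genes wild-type array 3 lay close to the arrays labelled deficient Lrat-/- and far below the other wild-type arrays. Without it 11 interferon genes fell, where 0.736% of all genes fell. Among the 11 were Gbp6 (-1.52, adjusted p = 0.0129), Gbp7 (-1.10, adjusted p = 0.00936) and Gbp9 (-0.99, adjusted p = 0.0314). Ifi44l rose in that fit too, and the list median was -0.28. These 3 guanylate-binding protein genes passed without no other array, and their adjusted p then reached 0.757 for Gbp6, 0.806 for Gbp7 and 0.796 for Gbp9. Without wild-type array 1 the median was -0.049. Of 16 genes of MHC antigen presentation 14 were lower at any size (median -0.23), with Cd74, the invariant chain, at -0.61 ± 0.26 (adjusted p = 0.536).

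Lists of heart muscle genes had small median differences, while some members differed by more. Of 33 sarcomere and Z-disc genes 26 were lower at any size, 8 at an unadjusted p under 0.05 (5.47% of all genes), and 0 passed (median -0.11). In 11 of the 33 all arrays labelled deficient Lrat-/- lay below all wild-type arrays (6.57% of all genes). Myh6, the alpha myosin heavy chain of the adult mouse ventricle, had 13.01, 12.94 and 12.82 in hearts labelled deficient Lrat-/-, against 13.20, 13.34 and 13.22 in wild type (-0.33 ± 0.08, adjusted p = 0.234). Myom2, myomesin of the M-band, had 10.76, 10.68 and 10.78, against 11.38, 11.43 and 10.97 in wild type (-0.52 ± 0.12, adjusted p = 0.221), and it fell without wild-type array 3 (-0.67, adjusted p = 0.00989). Neither gene's groups overlapped. With another array left out Myom2 did not pass, and its adjusted p reached 0.584. Among fetal and stress genes 0 of 26 passed, and Nppb, B-type natriuretic peptide, was at -0.74 ± 0.30 (adjusted p = 0.527). Of 21 potassium channel genes 0 passed, with Kcne1 at -0.52 ± 0.14 (adjusted p = 0.286). Of 18 sodium, calcium and pacemaker channel and connexin genes 0 passed, with the pacemaker channel Hcn2 at 0.33 ± 0.09 (adjusted p = 0.335) and the connexin Gja1 at -0.49 ± 0.20 (adjusted p = 0.513). Of 29 genes of membrane repair and the dystrophin complex Trim72 rose and 28 did not pass, with Sgcd, delta-sarcoglycan, at -0.27 ± 0.07 (adjusted p = 0.246).

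Genes of the citric acid cycle, of fatty acid oxidation and of glucose use were mostly lower by small amounts, which did not hold for the respiratory chain and ATP synthase (23 of 46 higher, as given above). Of 32 genes of the citric acid cycle and pyruvate dehydrogenase 29 were lower at any size, 12 of them with groups that do not overlap (6.57% of all genes), and 0 passed (median -0.13). Sdha, a subunit of succinate dehydrogenase, had 12.25, 12.20 and 12.25 in hearts labelled deficient Lrat-/-, against 12.75, 12.45 and 12.45 in wild type (-0.32 ± 0.11, adjusted p = 0.443). Of 38 genes of fatty acid uptake and oxidation 29 were lower (median -0.066), and the median was 0.00016 without wild-type array 1. Of 32 genes of glucose uptake, glycolysis and glycogen 27 were lower (median -0.079). The glucose transporter of muscle, Slc2a4, had 10.35, 10.42 and 10.22, against 11.07, 10.57 and 10.53 in wild type (-0.39 ± 0.14, adjusted p = 0.464). None of the genes of these 3 lists passed in limma.

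The authors' deposited table gives a ratio and a p-value for the same pair of groups, from the same arrays. All 29 genes had the same direction there. The ratio in the authors' deposited table was 0.0279 for Gdpd3, 0.0736 for Hal, 2.35 for Pkig, 2.04 for Lrat and 0.662 for Casq2. Over the genes tested, 1839 p-values of the authors' deposited table were under 0.05, and after Benjamini-Hochberg adjustment 4 genes passed, Gdpd3, Hal, Mmut and Lrat.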

How the data were processed

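RNA of left ventricles was measured on 9 Affymetrix mouse gene arrays, 1 per sample. The authors deposited log2 signals per sample after RMA, which corrects background, quantile-normalizes arrays and summarises probes. The log2 scale was read from the values. R 3.1.2 and build mm8 appear in the submitters' processing notes with no role stated. The authors' deposited table holds a ratio and a p-value for this pair of groups, as its headers say, but its test is not stated there or in the labels. A further deposited table has 9 value columns that match no label, and only its text columns and its negative control probe sets' identities were used.

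Of 35556 probe sets, 23767 were named by the gene symbol of the comparison table, updated through RefSeq tables (20305 by symbol, 2575 by accession, 25 by the assignment text, 862 as written). Left out were 9449 with no symbol and 2340 for which 2 deposited tables name different genes. The probe set with the highest mean over the arrays stood for each of 21882 genes.

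Groups came from the sample titles. limma 3.58.1 in R 4.3.3 fitted 1 mean per group over all 9 arrays (lmFit, contrasts, eBayes). Its two-sided p-values were adjusted by Benjamini-Hochberg over the 21882 genes, and 0.05 was the threshold. It was tested on simulated data. Errors beside differences are standard errors, with 3 arrays per group. The number of arrays limits the precision, and an exact permutation test of 3 against 3 arrays cannot go below 0.1 for a single gene. Replicate numbers 1 to 3 recur in each group, without a stated litter, batch or day behind them. Deviations of same-numbered arrays of the 2 groups correlated at 0.130, -0.0502 and 0.0125, so the numbers were not used as pairs.

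Members, the 38 gene lists and the 14 marker lists were chosen with earlier results of these data known. Named are Lrat, up to 15 genes per direction that passed and did not overlap between groups, the 5 genes on either side of the threshold, any retinoid gene, and in each list the members past the threshold and up to 4 with the lowest p-values. Predicted and clone genes were counted and passed over, and some genes that the rule names are not reported here. Other genes are marked as chosen after their values were seen. Alternatives were the arrays left out in turn, only the 6 arrays compared, a replicate block, further normalization, filters on dim genes, other rules for probe sets and names (keeping differing names was added after seeing the data), and the authors' p-values. Promoters came from RefSeq (GRCm38.p6). Tables and plots used Python 3.11.15, pandas 2.3.3, numpy 2.4.6 and matplotlib 3.10.9.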

Additional observations from a re-analysis of the deposited data

How the results depend on the processing

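Instead of 29 genes, of which 16 over 2-fold, 7 and 7 passed with only the 6 arrays compared in the model, 19 passed at a mean log2 of at least 7 (fewer genes tested), and 4, of which 3 over 2-fold, passed by the authors' deposited p-values. With every probe set as its own feature, unnamed ones included, 26 probe sets over 2-fold passed. Leaving out each of the 9 arrays in turn gave 11 to 279 genes and 9 to 48 over 2-fold. The lowest counts came without arrays labelled deficient Lrat-/- (15, 12 and 11 genes without arrays 1, 2 and 3), which also removes samples, 17 came without wild-type array 1 and the highest without wild-type array 3, where the cause was not tested. Counts stayed within 1.5 times of the reported one with the mean of probe sets, quantile normalization again, median centring, a mean of at least 6, a trend or robust eBayes, and differing names kept. No pairing is stated behind the replicate numbers, and 3 arrays per group cannot show whether there was one. With the replicate block 25 genes passed, 15 of them over 2-fold and 22 of them among the 29. Of the 26 genes described 8 passed without each of the 9 arrays (Lrat, Gdpd3, Hal, Hnmt, Pkig, Ifi44l, Clec2e and Lgr6), and 5 in every alternative run (the same without Hnmt, Pkig and Clec2e). Over these genes and alternatives 389 of 505 calls were kept and 0 changed direction. The difference of Cyp26a1, which did not pass, lay between -0.0484 and 0.0176 with 1 array left out. Dim signals in at least 1 of the groups compared limit the sizes of 20 of the 29 differences.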

Other observations

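Probe sets with no gene symbol in the comparison table were outside the comparison of genes. Fitted with all 35556 probe sets, 35 passed (limma, adjusted p under 0.05), of which 11 carried no symbol, 9 higher and 2 lower in hearts labelled deficient Lrat-/-, all by more than 2-fold. They are named here after their values were seen.

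The probe sets 10415081, 10520121, 10578405 and 10586076 hold identical values and count as 1 measurement. Their signals were 9.95, 9.95 and 10.15 in hearts labelled deficient Lrat-/-, against 4.64, 4.39 and 4.91 in wild type (5.37 ± 0.13, SE; adjusted p = 7.62e-07). On the arrays labelled sufficient Lrat-/- they were 10.50, 10.68 and 10.62. Probe set 10468877 had 9.2, 9.15 and 9.22, against 4.96, 4.56 and 3.64 in wild type (4.80 ± 0.28, adjusted p = 4.65e-04), and 10367744 had 8.80, 7.99 and 8.56, against 5.90, 5.33 and 5.91 in wild type (2.74 ± 0.26, adjusted p = 0.0122). These signals were bright in every heart labelled Lrat-/- and dim in every wild-type heart. Which sequences they measure is not known here.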
